A study of Mus musculus with 2 samples.

Results

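Aerocytes in which no transcript of Il1a, Serpina3k or Serpina3m was counted made up 628 of the 8297 cells that passed the filter, 422 from donor and 206 from recipient sorts. A cell passed with at least 1000 UMIs (unique molecular identifiers, which count single transcript molecules) and under 7% mitochondrial UMIs. It was taken as an aerocyte with at least 3 UMIs of Ednrb, at least 3 of Car4, at least 1 of Cdh5, at most 3 of Plvap and at most 4 of Ager. The gate held 1440 donor-library and 614 recipient-library cells. Those with 0 UMIs of Il1a, Serpina3k and Serpina3m are called negative aerocytes here, and those with at least 1 UMI of any of the 3 are called other aerocytes. The cells were thus chosen by the measured UMIs of these 8 genes, whose levels are not results.

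Aerocytes are the large capillary endothelial cells that lie against the alveolar epithelium, where gas exchange takes place. General capillary cells line the rest of the alveolar capillary bed and are known as its progenitor population. Il1a encodes interleukin-1 alpha, a cytokine that can act as an alarm signal when cells are damaged. Serpina3k and Serpina3m belong to a mouse cluster of secreted serine protease inhibitors related to human alpha-1-antichymotrypsin, a protein known to increase in inflammation.

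The study followed lung chimerism, in which a lung holds cells of 2 origins. C57Bl mice were given a suspension of TdTom single cells, and the lungs of 3 chimeric mice were taken 6 months later, dissociated and pooled. Live cells without CD45, the surface protein of leukocytes, were sorted by td-tomato fluorescence and sequenced on the 10x Genomics platform. The donor library holds td-tomato positive cells of donor origin, and the recipient library holds td-tomato negative cells of the same C57Bl recipients. Both libraries come from the same pooled transplanted lungs, so neither is an untreated lung. Since each group is 1 library, nothing could be tested and no spread between replicates is known. The 95% intervals given with shares, levels and ratios cover counting error only.

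The libraries held 37997269 UMIs in 6319 barcodes (donor) and 26201315 UMIs in 3784 barcodes (recipient). Of all barcodes, 816 occurred in both, and each was kept only in the library where it had more UMIs, which took 736 copies from the donor library and 80 from the recipient library. Among negative aerocytes, 2 donor-library and 13 recipient-library cells carried such a barcode. Negative aerocytes had a median of 8241.5 UMIs in the donor library and 6944.5 in that of the recipient, whereas other aerocytes had 9130 and 8275.

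The share of negative aerocytes depended on depth. They were 29.3% of donor-library aerocytes (95% exact interval 27.0 to 31.7) and 33.6% of recipient-library aerocytes (29.8 to 37.4). When each aerocyte was thinned to 3000 UMIs and the rule applied again, the shares were 52.5% (749 of 1428 cells, 49.8 to 55.1) and 51.5% (310 of 602, 47.4 to 55.6), with 12 shallower cells left out in each library. The share was lower in deeper cells in both libraries. In the donor library it was 47.2% below 5000 UMIs, 32.0% between 5000 and 10000 UMIs and 20.6% from 10000 UMIs. Recipient-library cells of the same depths gave 49.5%, 32.6% and 25.2%. At equal depth the donor and recipient shares overlapped in their intervals. A count of 0 in a cell is therefore not evidence that the gene was silent.

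The genes that define the group were each sparse in aerocytes. At 3000 UMIs, Il1a was seen in 19.9% of donor-library and 18.6% of recipient-library aerocytes, against 1.28% and 0.728% of general capillary cells. Without thinning, the aerocyte shares were 41.1% and 32.1%, and the general capillary shares 2.15% and 1.40%, at median depths of 8848 and 7934 UMIs for aerocytes and 5392 and 5810 for general capillary cells. Serpina3k was seen in 14.4% and 17.1% of thinned aerocytes and Serpina3m in 27.8% and 32.7%, against at most 0.332% and 1.46% of general capillary cells. Without thinning, Serpina3k was seen in 26.1% and 26.9% of aerocytes and Serpina3m in 47.4% and 48.4%. In thinned donor-library cells, Il1a occurred in 19.4% of aerocytes with Serpina3k or Serpina3m and in 20.2% of those without. Recipient-library shares were 20.3% (15.3 to 26.2) and 17.6% (13.8 to 21.8). Without thinning, the shares were 42.5% and 39.6% in donor-library aerocytes and 35.5% (30.3 to 40.9) and 28.2% (23.1 to 33.8) in recipient-library aerocytes. These UMIs are the ones the rule used, so the shares are a description only.

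The cells nearest the edge of the rule were numerous for the sparse genes and few for the gate genes. Just outside it, 143 donor-library and 47 recipient-library aerocytes differed from the group only by 1 UMI of Il1a, 91 and 52 by 1 UMI of Serpina3m, and 26 and 15 by 1 UMI of Serpina3k. Inside it, 18 and 12 negative aerocytes had exactly 3 UMIs of Ednrb, and 11 and 12 cells were left out for having 2. The median negative aerocyte had 11 (donor) and 10 (recipient) UMIs of Ednrb, and 30 and 28.5 of Car4.

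Negative aerocytes held aerocyte genes at levels near those of other aerocytes. Each of the 6 aerocyte markers was detected in both libraries, and 4 of them (Fibin, Alpl, Emp2 and Prdm1) took no part in the gate. Levels are given as CPM, the UMIs of a gene scaled to 1000000 UMIs summed over the cells of a class in a library. Fibin, a secreted protein named for its role in fin bud initiation in fish, stood at 751 CPM in negative aerocytes, 769 in other aerocytes and 6.38 in general capillary cells of the donor library, and at 838, 842 and 8.87 CPM in the recipient library. Alpl, tissue-nonspecific alkaline phosphatase, stood at 260 CPM in negative aerocytes, 241 in other aerocytes and 3.51 in general capillary cells of the donor library, and at 245.5, 268 and 1.77 CPM in the recipient library. Both genes separated aerocytes with and without the 3 transcripts from general capillary cells, and not from each other. At 3000 UMIs, Fibin was seen in 71.2% of donor-library and 76.9% of recipient-library negative aerocytes and in 1.66% and 2.67% of general capillary cells, and without thinning in 85.8% and 86.4% of negative aerocytes.

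The further genes that set the group apart from general capillary cells showed the same picture. Emp2, a tetraspan membrane protein of alveolar type 1 cells and aerocytes, reached 4014 CPM in donor-library and 4602 CPM in recipient-library negative aerocytes, against 130 and 107 CPM in general capillary cells. Rspo3, a secreted enhancer of Wnt signalling, had 197 and 217 CPM in negative aerocytes, against 2.55 and 0.355 CPM in general capillary cells. Chst1, a sulfotransferase of keratan sulfate, had 439 and 430 CPM against 5.90 and 5.32. Among genes with at least 100 CPM in the negative aerocytes of both libraries, those with high ratios over general capillary cells also included Gpnmb, Sirpa, Rprml, Frrs1, Lmntd1, Tmeff2, Rasa4, Pde8b and Slc22a23, at 106 to 350 CPM (donor) and 110 to 309 CPM (recipient). Cdkn2a, which encodes the cell cycle inhibitor p16 and the protein ARF, was at 779 CPM in donor-library and 593 CPM in recipient-library negative aerocytes and at 732 and 665 CPM in other aerocytes, against 35.5 and 16.3 CPM in general capillary cells. In these 15 genes, the level in negative aerocytes lay close to that in other aerocytes, with log2 ratios from -0.25 to 0.17.

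**Figure D1:**
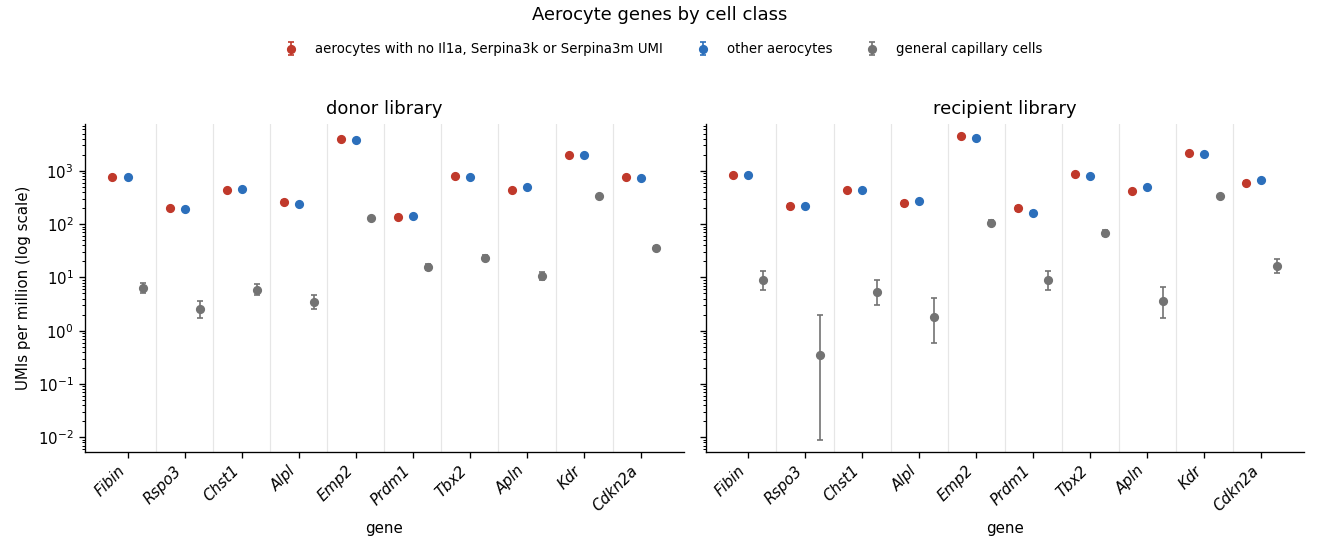
Levels of 10 aerocyte genes in CPM (log axis) in negative aerocytes (red), other aerocytes (blue) and general capillary cells (grey), by library, with 95% Poisson intervals for counting error. Red and blue points lie near each other for each gene, and grey points lie below them, for example at 6.38 CPM against 751 for Fibin in the donor library.

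Few genes differed between negative and other aerocytes. A gene was called where the ratio reached at least 1.5-fold and its 95% interval excluded equality, among genes with at least 20 counts in both classes together and at least 1 in each. In the donor library 219 of 11073 genes were higher (1.98%) and 91 lower (0.822%). In the recipient library 224 of 10207 were higher (2.19%) and 260 lower (2.55%). Both libraries called 41 of 10009 genes higher (0.41%) and 8 lower (0.0799%). The 10 measured genes of the aerocyte list (without Car4 and Ednrb) gave 0 calls in either library, with median log2 ratios of 0.04 (donor) and 0.07 (recipient), where all measured genes had medians of 0.02 and -0.01.

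Of the 8 genes called lower in both libraries, 4 reached 20 CPM in the higher class, and 3 of these were serpins of the same gene cluster as Serpina3k and Serpina3m. Serpina3n, the most abundant of them, had 156 CPM (143 to 169.5) in negative aerocytes and 498 CPM (484 to 512) in other aerocytes of the donor library. The recipient library had 166.5 CPM (147 to 188) in negative and 638 CPM (612 to 666) in other aerocytes. The log2 ratios were -1.68 (-1.81 to -1.55) and -1.94 (-2.13 to -1.75). Serpina3n lies at chr12:104406729-104414329, Serpina3f at chr12:104214544-104221129 and Serpina3g at chr12:104236245-104241939, all on the + strand and protein coding (GENCODE M21, GRCm38). The rule itself drew on Serpina3k and Serpina3m, so these neighbours are not independent of it. In the last 500 bases of the annotated protein-coding transcripts, no stretch of 50 bases of Serpina3k or Serpina3m was shared with Serpina3n, Serpina3f or Serpina3g, while Serpina3g shared 10.9% of its stretches with Serpina3f and 12.6% with Serpina3i, and Serpina3f shared 2.41% with Serpina3g and 0.438% with Serpina3i. The counts of Serpina3f, Serpina3g and Serpina3i are therefore uncertain, since a read from a shared stretch does not tell these genes apart. The annotated span of Serpina3m (chr12:104338486-104394257) contains that of Serpina3k (chr12:104338486-104346144) on the same strand. In the last 500 bases, 0 of 451 stretches of Serpina3k were found in Serpina3m transcripts, and 0 of 452 stretches of Serpina3m in Serpina3k transcripts. What the overlap of the spans does to the counts of Serpina3k and Serpina3m, and so to the rule, was not tested.

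The promoters of the 3 called serpins are shown because their genes were lower together (RefSeq, GRCm38.p6, 250 bases before to 50 after the start, 5′ to 3′ on the + strand). They lie at chr12:104406458-104406757 for Serpina3n, chr12:104214294-104214593 for Serpina3f and chr12:104235897-104236196 for Serpina3g. Capitals mark the STAT-type motif TTCNNNGAA, which reads the same on both strands:
Serpina3n: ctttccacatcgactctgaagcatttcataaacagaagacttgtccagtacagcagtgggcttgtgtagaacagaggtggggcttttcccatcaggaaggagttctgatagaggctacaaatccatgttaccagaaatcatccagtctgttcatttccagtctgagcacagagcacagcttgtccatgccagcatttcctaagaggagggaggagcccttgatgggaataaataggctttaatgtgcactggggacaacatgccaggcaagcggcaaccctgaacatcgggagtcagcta
Serpina3f: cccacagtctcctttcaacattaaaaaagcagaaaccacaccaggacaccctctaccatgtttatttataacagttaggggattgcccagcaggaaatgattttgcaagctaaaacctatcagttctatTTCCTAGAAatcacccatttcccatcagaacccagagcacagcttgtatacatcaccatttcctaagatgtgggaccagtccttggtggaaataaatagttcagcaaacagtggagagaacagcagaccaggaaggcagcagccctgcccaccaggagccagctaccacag
Serpina3g: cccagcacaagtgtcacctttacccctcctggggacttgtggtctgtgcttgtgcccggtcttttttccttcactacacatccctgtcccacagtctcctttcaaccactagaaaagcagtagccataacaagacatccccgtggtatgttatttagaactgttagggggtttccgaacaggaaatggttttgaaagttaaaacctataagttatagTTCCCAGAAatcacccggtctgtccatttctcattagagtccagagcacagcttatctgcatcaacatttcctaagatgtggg
The motif occurred once in the Serpina3f promoter, beginning 121 bases before the RefSeq start. It occurred once in the Serpina3g promoter, beginning 33 bases before the RefSeq start of that gene, and was not found in this window of Serpina3n. The Serpina3g window ends at 104236196, before the GENCODE start of Serpina3g at 104236245, so the distances depend on the start chosen. Of 32851 promoters of the same length, 8.30% held the motif. The AP-1 motif TGANTCA, which reads the same on both strands and was in 7.81% of promoters, and the NF-kB-type motif GGGANNTCC (GGANNTCCC on the other strand), in 4.30%, matched none of the 3. These matches describe letters and not sites of binding.

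Serpina3f and Serpina3g followed Serpina3n at lower levels. Serpina3f had 20.2 CPM in negative and 59.0 CPM in other aerocytes of the donor library, and 13.2 and 53.1 CPM in the recipient library. Serpina3g had 18.2 and 71.5 CPM in the donor library and 11.2 and 52.8 CPM in the recipient library. Their log2 ratios were -1.55 and -1.97 in the donor library and -2.01 and -2.24 in the recipient library. Split by class, the difference followed the Serpina3k and Serpina3m part of the rule and not the Il1a part. Serpina3n was at 156 CPM in negative aerocytes, 140 CPM in aerocytes with Il1a only, 644 CPM in those with Serpina3k or Serpina3m only and 618 CPM in those with both in the donor library. The same classes stood at 166.5, 194, 755 and 743 CPM in the recipient library. When thinned to 3000 UMIs, Serpina3n was seen in 24.8% and 25.1% of negative aerocytes (35.8% and 38.4% without thinning), 66.3% and 72.0% of other aerocytes (80.1% and 86.0%) and 1.57% and 5.34% of general capillary cells. With the rule applied again to thinned cells, the log2 ratios of Serpina3n were -0.96 (donor) and -1.45 (recipient). Serpina3n was thus still counted in some of the cells that had no UMI of Serpina3k or Serpina3m. Of the measured serpins, 2 of 11 were called higher and 4 lower in donor-library cells, and 0 of 10 higher and 3 lower in recipient-library cells; the higher ones were Serpine2 and Serping1, and Serpina3i, at 0.284 CPM in negative aerocytes, was the fourth lower one.

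Lyve1 was the named gene outside the serpin cluster that was lower in both libraries. It encodes a hyaluronan receptor best known from lymphatic endothelium. Lyve1 had 238 CPM (222 to 255) in negative aerocytes and 381 CPM (369 to 394) in other aerocytes of the donor library. In the recipient library it had 203 CPM (181 to 227) and 396 CPM (375 to 417). The log2 ratios were -0.68 (-0.79 to -0.57) and -0.96 (-1.14 to -0.78), and the intervals of the 2 classes did not meet in either library. At 3000 UMIs, Lyve1 was seen in 29.1% and 26.1% of negative aerocytes and 42.0% and 43.9% of other aerocytes, and without thinning in 43.1% and 35.9% against 58.0% and 59.1%. In cells of the fibroblast class, at 3000 UMIs, Lyve1 was seen in 0 of 30 donor-library and 0.508% of recipient-library cells. That donor-library class also held pericyte transcripts. With the rule applied again to thinned cells, the log2 ratios were -0.67 and -1.02. Aerocytes with Il1a only lay between, at 296 CPM in the donor library and 332 in that of the recipient. Aerocytes with Serpina3k or Serpina3m only had 403 and 414 CPM, and those with both had 424 and 408 CPM. Of the 4 lymphatic markers, 2 were detected in donor-library and 3 in recipient-library negative aerocytes. Flt4, the receptor of VEGF-C, was at 41.5 and 42.8 CPM, Mmrn1 at 0 and 1.97 CPM, and Prox1, the defining lymphatic transcription factor, at 0 in both. General capillary cells held 397 and 573 CPM of Lyve1.

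**Figure D2:**
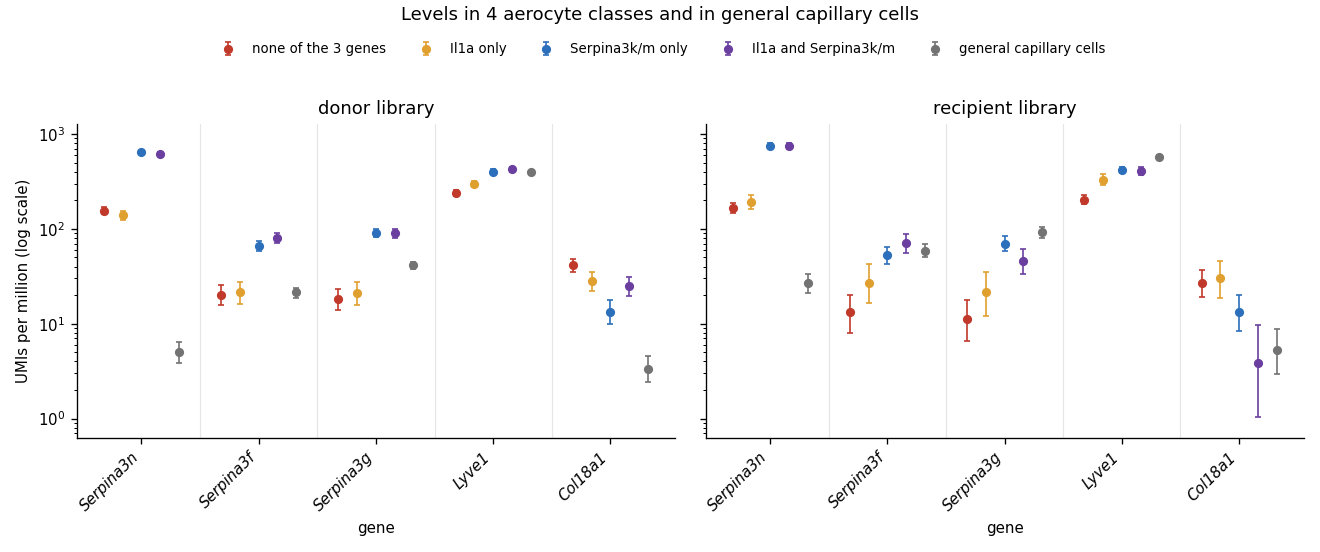
Levels of Serpina3n, Serpina3f, Serpina3g, Lyve1 and Col18a1 in CPM (log axis), by library, in negative aerocytes (red), aerocytes with Il1a only (orange), with Serpina3k or Serpina3m only (blue), with both (purple) and general capillary cells (grey); bars are 95% Poisson intervals for counting error. The serpins are low in the red and orange classes, and Lyve1 is lowest in the red class, at 238 CPM (donor) and 203 CPM (recipient).

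Among the 10 named genes called higher in both libraries, 9 were genes abundant in pericytes. Their UMIs in negative aerocytes lay mostly in cells that carried markers of pericytes or of other non-endothelial cell types. Pericytes are the mural cells that wrap capillaries. Cox4i2, a respiratory chain subunit found in pericytes, had 54.3 CPM in negative and 17.2 CPM in other aerocytes of the donor library, and 268.5 and 118 CPM in the recipient library. Pdgfrb, the platelet-derived growth factor receptor of mural cells, had 22.8 and 7.15 CPM in the donor library and 139.5 and 75.8 CPM in the recipient library. Pericytes held Cox4i2 at 4829 CPM in the donor library and 4434 CPM in that of the recipient. That class was chosen by UMIs of Cox4i2 and Pdgfrb, so its levels of these genes are not results. Postn, which took no part in that choice, was at 2932 CPM (donor) and 2688 CPM (recipient) in pericytes. Postn, Higd1b, Ndufa4l2, Gucy1a1, Gucy1b1, Fst and Crim1 were the others, with log2 ratios of 0.82 to 2.18 (donor) and 0.79 to 1.13 (recipient).

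The pericyte transcripts lay in few cells. All 5 pericyte markers had UMIs in negative aerocytes, and together they reached 106 CPM in negative and 36.1 CPM in other aerocytes of the donor library, and 541 and 264 CPM in the recipient library. Cells with 5 or more pericyte UMIs were 9 of 422 negative aerocytes (2.13%, 0.980 to 4.01) and 9 of 1018 other aerocytes (0.884%) in the donor library. In the recipient library they were 15 of 206 (7.28%, 4.13 to 11.7) and 17 of 408 (4.17%). Their median depths, 13480 UMIs (donor) and 11661 UMIs (recipient), were above those of all negative aerocytes. The 3 cells with the most pericyte UMIs held 48.7% of them in the donor library and 26.0% in that of the recipient. Whether such barcodes hold 2 cells was not tested.

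**Figure D3:**
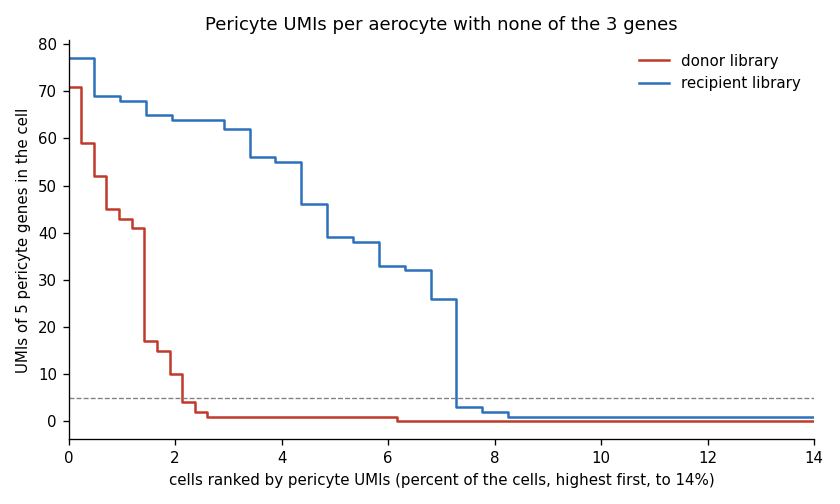
UMIs of 5 pericyte genes per negative aerocyte (vertical axis), with cells ranked from the highest and given as a percent of the cells in the donor (red) and recipient (blue) library; the dashed line is at 5 UMIs. The lines drop below it after 2.13% of donor-library and 7.28% of recipient-library cells.

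Markers of further cell types differed in level. The alveolar type 1 set, of which 6 of 6 were detected, reached 2125 CPM in donor-library and 2333 CPM in recipient-library negative aerocytes, and 2390 and 2257 CPM in other aerocytes. Nearly all of it in negative aerocytes was Hopx, a homeodomain protein, at 2106 and 2256 CPM, while Rtkn2 was at 0.284 and 1.97 CPM and Aqp5 at 0.569 and 9.21 CPM. The arterial set reached 20.5 CPM in donor-library and 184 CPM in recipient-library negative aerocytes (4 and 3 of 5 detected, Dkk2 at 0 in both), and 15.2 and 481 CPM in other aerocytes; Mgp, matrix Gla protein, made up 168.5 CPM of it in recipient-library negative aerocytes. Fibroblast markers reached 20.8 CPM in donor-library negative aerocytes (4 of 6 detected, Dcn and Pdgfra at 0) and 174 CPM in recipient-library ones (6 of 6). Of the leukocyte markers, 2 of 6 were detected in the donor library and 3 of 6 in the recipient library, with Ptprc, which encodes CD45, at 0 in both. The 3 mesothelial markers were at 0. General capillary markers, of which 7 of 7 were detected, reached 285 CPM in donor-library and 159 CPM in recipient-library negative aerocytes.

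The ratios and the counts of calls were therefore also computed without cells that had 5 or more UMIs of any of 9 non-endothelial marker sets, which left out 13 donor-library (3.08%) and 18 recipient-library (8.74%) negative aerocytes. In the donor library 142 of 10890 genes were then higher (1.3%) and 88 lower (0.808%), and in the recipient library 154 of 9623 were higher (1.6%) and 159 lower (1.65%). Genes called higher in both libraries were 7 of 9577 (0.0731%), and genes called lower in both were 6 (0.0627%). Serpina3n, Serpina3f, Serpina3g and Lyve1 were among the 6, at log2 ratios of -1.65, -1.53, -2.01 and -0.67 in the donor library and -1.93, -2.36, -2.19 and -0.95 in the recipient library. Lyrm1 and Slfn3, the remaining 2, were at 9.67 and 3.13 CPM or less in negative aerocytes. None of the 9 pericyte-type genes was called in both libraries. Cox4i2, Pdgfrb and Higd1b belong to the pericyte set that picked the cells left out, so the fall of their ratios is partly built in. Gucy1b1 was still called higher in the donor library, at 0.70 (0.14 to 1.25).

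Col18a1 was the named gene that stayed higher in both. It encodes collagen XVIII, a basement membrane collagen whose C-terminal fragment is endostatin. It had 41.2 CPM (34.8 to 48.5) in negative and 21.3 CPM (18.5 to 24.5) in other aerocytes of the donor library, and 27.0 CPM (19.4 to 36.6) and 13.8 CPM (10.2 to 18.3) in the recipient library. These are ratios of 1.93-fold (1.55 to 2.40) and 1.96-fold (1.26 to 3.03), and log2 ratios of 0.95 and 0.97, which were 1.01 and 1.06 without cells with other types' markers. Aerocytes with Il1a only had 28.3 CPM (donor) and 30.01 CPM (recipient), and those with Serpina3k or Serpina3m only had 13.4 and 13.3 CPM. Aerocytes with both had 24.8 CPM in the donor library but 3.82 CPM in that of the recipient, so the 2 libraries differed in how Col18a1 followed the classes. The level rests on few cells: 3 cells held 20% of its UMIs in donor-library and 34.1% in recipient-library negative aerocytes. The other genes called higher in both after that exclusion, named because they are few, were Kif26b, Il15ra, Lamc3, Tigar and Pdxk, beside an X-linked gene that the naming rule leaves out. Kif26b, a kinesin family member, was the most abundant of them, at 35.8 CPM in negative and 24.1 CPM in other aerocytes of the donor library and at 32.2 and 21.3 CPM in the recipient library.

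**Figure D4:**
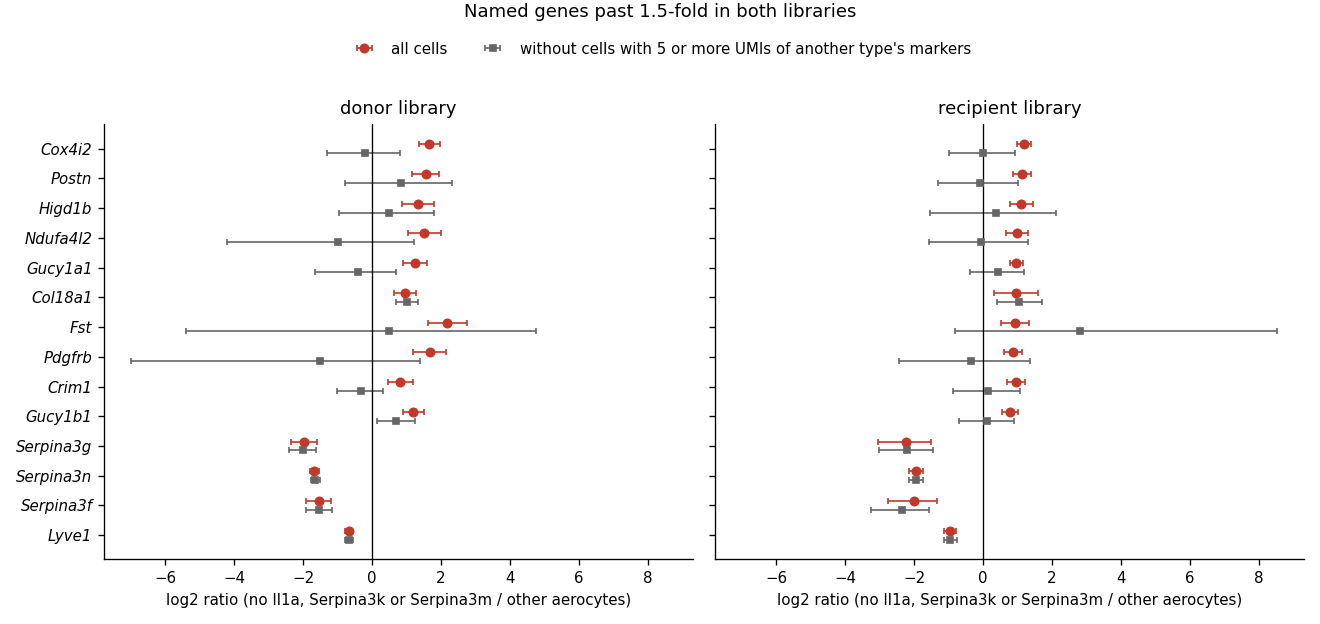
Log2 ratio of negative over other aerocytes for the 14 named genes, by library, with all cells (red) and without cells with 5 or more UMIs of another type's markers (grey); bars are 95% intervals for counting error. In the donor library Cox4i2, a marker that picked the cells left out, moves to -0.19. Gucy1a1, which is not such a marker, moves to -0.40, whereas Serpina3n (-1.65), Lyve1 (-0.67) and Col18a1 (1.01) stay in place.

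Pathway lists are set beside the shares over all genes, which were 1.98% higher and 0.822% lower (donor) and 2.19% higher and 2.55% lower (recipient). Of genes of JAK-STAT signalling, which carries many cytokine signals, 0 of 16 were called in the donor library (median log2 ratio -0.15) and 1 of 16, Cebpb, was lower in the recipient library (median -0.16). Immediate early genes, the fast responders to stimulation and to dissociation, gave 0 of 28 calls in the donor library (median -0.10) and 2 of 27 lower, Nr4a1 and Ccn1, in the recipient library (median -0.16). The interferon list had 1 of 27 lower in the donor library, Rsad2, and 2 of 26 higher in the recipient library, Ifit1 and Ifi27l2a. Among interleukin-1 and NF-kB genes, 0 of 7 were called in the donor library and 1 of 8, Il6, was lower in the recipient library. Il1r1, the receptor of interleukin-1, had 28.7 CPM in negative and 25.6 CPM in other aerocytes of the donor library and 29.6 and 22.7 CPM in the recipient library, and was not called. Respiratory chain genes gave 0 of 26 calls in both libraries. MHC class II genes had 1 of 6 higher in donor-library negative aerocytes, H2-Aa, and 3 of 4 lower in recipient-library ones, Cd74, H2-Aa and H2-Eb1 (median -1.57). Of these 4, Cd74 alone was lower without cells with other types' markers. Insulin-like growth factor genes had 0 of 6 calls in donor-library negative aerocytes. Recipient-library ones had 1 of 9 higher, Igfbp2, and 3 lower, Igfbp3, Igfbp5 and Igfbp6, which gave 0 of 7 calls without cells with other types' markers.

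Between origins, donor-library negative aerocytes had 181 of 10000 genes higher (1.81%) and 440 lower (4.4%) than recipient-library ones. Without cells with other types' markers, 183 of 9663 were higher (1.89%) and 222 lower (2.3%). The aerocyte genes differed little. None of 10 was called, and the median log2 ratio was -0.13, against 0.00 over all measured genes. Prdm1, a transcriptional repressor, was the most different of the 4 markers outside the gate, at 138.5 CPM in the donor library and 197 CPM in that of the recipient (log2 ratio -0.51). Without cells with other types' markers it was called lower. At 3000 UMIs, Prdm1 was seen in 34.4% of donor-library and 45.7% of recipient-library negative aerocytes (63.3% and 68.0% without thinning), and in 4.51% and 3.16% of general capillary cells.

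MHC class II genes, whose products display antigen to T cells, were higher in donor-library negative aerocytes, at low levels. All 4 measured of 10 listed were called higher, with a median log2 ratio of 2.25, where 1.81% of all genes were. Cd74, the invariant chain, had 58.9 CPM in the donor library and 11.8 CPM in that of the recipient (log2 ratio 2.31, 1.62 to 3.10). Other aerocytes had 54.0 CPM (donor) and 31.9 CPM (recipient) of Cd74, so recipient-library negative aerocytes also lay below the other aerocytes of their own library. H2-Aa had 14.2 and 2.63 CPM, H2-Ab1 18.2 and 5.26 CPM, and H2-Eb1 11.9 and 2.63 CPM. The recipient-library levels rest on 18 UMIs of Cd74, 4 of H2-Aa, 8 of H2-Ab1 and 4 of H2-Eb1. Other aerocytes had 9.32 CPM (donor) and 10.3 CPM (recipient) of H2-Aa, 14.9 and 7.18 CPM of H2-Ab1, and 13.05 and 8.615 CPM of H2-Eb1. General capillary cells had 3219 CPM of Cd74 in the donor library and 1580 CPM in that of the recipient. At 3000 UMIs, Cd74 was seen in 10.1% (7.37 to 13.4) of donor-library and 5.03% (2.44 to 9.05) of recipient-library negative aerocytes, and without thinning in 26.1% and 7.28%. In the fibroblast class, Cd74 was seen in 23.3% (9.93 to 42.3, 7 of 30 cells) and 3.45% (2.40 to 4.79) of thinned cells. The donor-library class also held pericyte transcripts, with Postn at 2128 CPM against 2932 in pericytes. Postn was at 575 CPM in the recipient-library class, so the classes of the libraries are not alike. The shares in negative aerocytes lay within or near the intervals of the fibroblast class. Whether these UMIs are background was not tested. In thinned cells with the rule applied again, the log2 ratio of Cd74 was 1.21, and that of H2-Aa was 0.90, against 2.43 without thinning.

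Of the general capillary markers outside the rule, 4 were measured, Gpihbp1, Tek, Glp1r and Lpl, and each was called higher in donor-library negative aerocytes. Without cells with other types' markers, none of the 4 was called. Ptprb, Cd93 and Vwf, which are also abundant in general capillary cells, were chosen after their values were seen and were called with and without those cells. Ptprb, an endothelial receptor phosphatase, had 51.5 CPM in donor-library and 7.90 CPM in recipient-library negative aerocytes, against 2051 and 1789 CPM in general capillary cells. Cd93 had 27.3 and 9.21 CPM, and Vwf, von Willebrand factor, had 24.2 and 8.56 CPM. Gpihbp1, which anchors lipoprotein lipase in capillaries, had 180 and 115 CPM. General capillary cells numbered 2184 of 4945 cells in the donor library and 430 of 3352 in the recipient library. Their part in these differences was not tested.

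The 10 genes named as higher in the donor library were at 21.3 to 68.8 CPM. Depp1, a FOXO target, had 37.3 CPM in donor-library and 13.8 CPM in recipient-library negative aerocytes (log2 ratio 1.43, 0.76 to 2.17). Cenpb, a centromere protein, had 68.8 and 33.6 CPM, and Xrcc4, a factor of DNA end joining, had 30.7 and 15.1 CPM. Spata7 had 60.9 and 27.6 CPM, with 37.4% of its donor-library UMIs in 3 cells. The others were Rassf3, Aldh4a1, Gpatch1, Dctpp1, Prkra and Abtb1, with log2 ratios of 1.02 to 1.25. In thinned cells with the rule applied again, Spata7, Cenpb, Prkra, Abtb1 and Rassf3 were under 1.5-fold, with log2 ratios of 0.24 to 0.51. Gpatch1 was not called without cells with other types' markers.

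The 10 genes named as lower in the donor library began with Scgb1a1, the secretory protein of club cells. It had 1.42 CPM in donor-library and 115 CPM in recipient-library negative aerocytes (log2 ratio -6.34). Within the recipient library it was at 85.0 CPM in other aerocytes, 103 CPM in general capillary cells and 126 CPM in fibroblasts. At 3000 UMIs it was seen in 20.1% of recipient-library negative aerocytes and 22.8% of fibroblasts (38.3% and 41.2% without thinning). Whether Scgb1a1 is background in these cells was not tested. Fgl2, a fibrinogen-like protein, had 0.569 and 37.5 CPM, with its recipient-library UMIs held entirely by 3 cells, and its log2 ratio was -0.37 when all shared barcodes were left out. Ifi27l2a, an interferon-induced gene, had 20.5 and 48.0 CPM, with 45.2% of recipient-library UMIs in 3 cells. Spast, Dmtf1, Farp1, Strbp and Nedd1 were at 9.95 to 22.5 CPM (donor) and 20.4 to 48.0 CPM (recipient), and stayed called without cells with other types' markers. Plekhg2 and Cacnb2 were not called without them. In thinned cells, Dmtf1 and Strbp were under 1.5-fold, at -0.54 and -0.23.

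**Figure D5:**
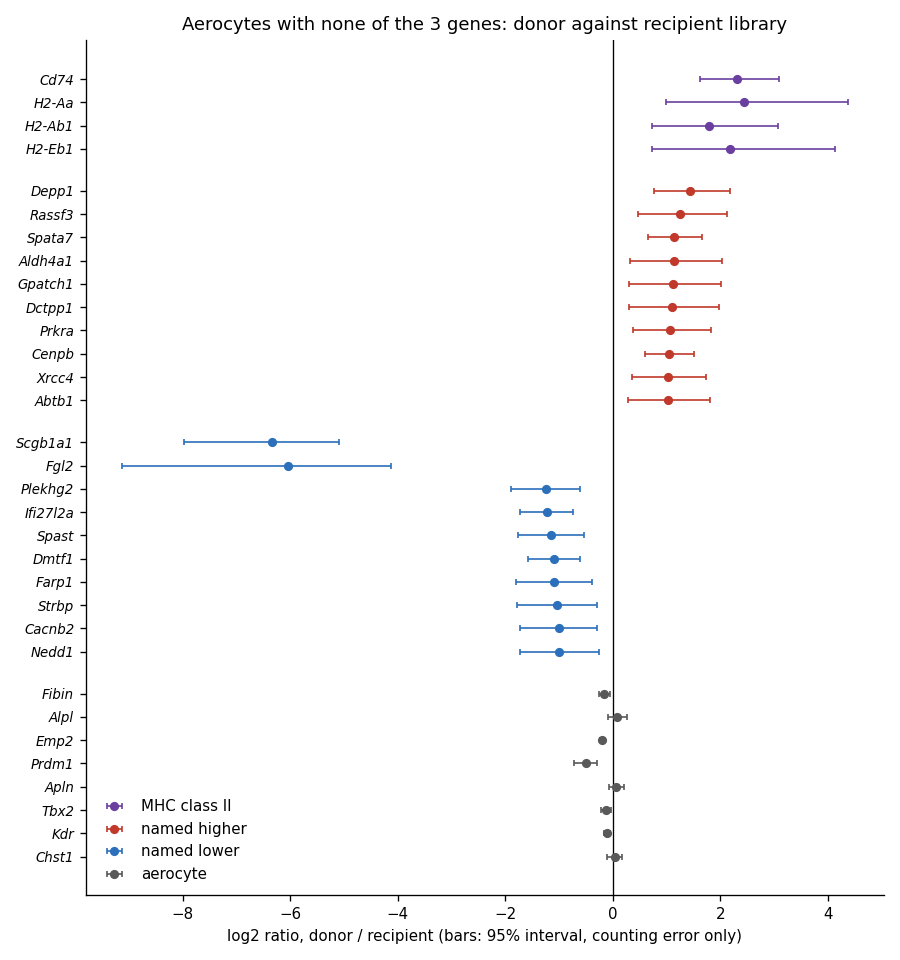
Log2 ratio of donor-library over recipient-library negative aerocytes for MHC class II genes (purple), genes named as higher (red) and as lower (blue) and aerocyte genes (grey); bars are 95% intervals for counting error. Aerocyte genes lie near 0, with Prdm1 at -0.51, and Scgb1a1 lies at -6.34.

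By origin, pathway lists are set beside 1.81% of all genes higher and 4.4% lower. Of transcription factors, 3 of 15 were higher, Sox7, Sox17 and Meox1, and 1 was lower, Tcf21. With cells with other types' markers left out, 4 of 14 were higher, Sox7, Sox11, Erg and Meox1, and Prdm1 was lower. Meox1, a homeobox factor, had 157 CPM in donor-library and 101 CPM in recipient-library negative aerocytes (log2 ratio 0.63, 0.37 to 0.90). In JAK-STAT signalling 2 of 16 were higher, Cish and Bcl3. Cish, a feedback inhibitor of cytokine signalling, had 84.8 and 55.3 CPM (log2 ratio 0.62, 0.26 to 0.98). Among interleukin-1 and NF-kB genes 0 of 7 were higher and 2 lower, Il1rap and Il18bp. Il1rap, the shared co-receptor of interleukin-1 family cytokines, had 28.4 CPM in the donor library and 50.7 CPM in that of the recipient (log2 ratio -0.83, -1.28 to -0.39). Interferon genes had 0 higher and 1 lower of 26 (median 0.09), p53 targets 0 calls of 20 (median 0.26), immediate early genes 0 of 27 (median 0.17) and respiratory chain genes 0 of 26 (median 0.18). Cdkn1a, the p21 cell cycle inhibitor, had 1192 and 982 CPM and was not called. Complement genes had 5 of 6 lower, with a median of -1.76, and fibroblast markers, which were at 20.8 CPM in donor-library and 174 CPM in recipient-library negative aerocytes, moved with them. Without cells with other types' markers, 3 complement genes were measured, of which C1ra and Cd59a were lower, with a median of -0.85.

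Variation among negative aerocytes was ranked by the Fano factor, which is the variance over the mean. After thinning to 3000 UMIs (416 donor-library and 199 recipient-library cells), it had a median of 1.06 and 1.08 over 2220 genes. Malat1, a nuclear long noncoding RNA, and Spp1 ranked highest. The Fano factor can rise with the level of a gene, so this does not rank variation relative to level. Malat1 reached 32.5 and 36.1 at mean thinned counts of 145 and 189, where Fos had means of 2.90 and 2.56. Spp1 had Fano factors of 21.8 and 42.2, which were 0.99 and 1.86 without cells with other types' markers. Fos, an immediate early transcription factor, reached 8.24 and 7.40. It was seen in 57.9% of donor-library and 55.8% of recipient-library cells, and reached 33 and 23 UMIs in single cells. Junb (6.29 and 6.79), Atf3 (4.75 and 7.63), Egr1 (4.31 and 5.10), Jund, Jun and Ier2 also had high Fano factors, as did Hspa1a, a heat shock protein (6.00 and 5.81), and Gdf15, a stress cytokine (3.89 and 4.73). The stimulation genes are also known to be induced by tissue dissociation, whose part was not tested. Cldn5, a tight junction protein, and Igfbp7 were seen in every thinned cell and varied in amount, with 18.5 to 47 UMIs of Cldn5 between the 10th and 90th percentile of the donor-library cells and 19 to 50 in the recipient library.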

How the data were processed

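Single-cell RNA was measured in 1 donor and 1 recipient library. The deposited files hold unnormalised UMI counts, made by the authors with Cell Ranger 4.0.0 per the file headers and the submitters' processing notes (the labels' protocol names another version), as filtered matrices on mm10. The authors' integrated values and cell annotation were not used here. Doublets were not removed. The 319 donor-library and 115 recipient-library barcodes with the highest Scrublet scores (scanpy 1.11.5) were left out as an alternative only, since its automatic threshold marked 1 donor-library barcode.

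Counts were summed per library and class and scaled to CPM (Python 3.11.15, NumPy 2.4.6, SciPy 1.17.1, pandas 2.3.3, figures with matplotlib 3.10.9). Shares carry exact Clopper-Pearson 95% intervals, levels exact Poisson intervals and ratios exact conditional intervals, which cover counting error alone. The ratio and call steps were tested on simulated data. General capillary cells had over 3 UMIs of Plvap, at least 3 of Gpihbp1, at least 1 of Cdh5, and at most 2 of Ednrb and of Car4. Pericytes were chosen by UMIs of Cox4i2 and Pdgfrb, and fibroblasts by UMIs of Col1a2, both without Cdh5. Thinning drew 3000 UMIs per cell without replacement. TMM scaling in edgeR 4.0.16 (R 4.3.3) was an alternative, beside other filters, gates and scalings.

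The members and the 37 gene lists were chosen with earlier results of these data known. Named genes exclude mitochondrial, ribosomal protein, haemoglobin, X- and Y-linked, unnamed and rule genes. By origin, the rule took the 10 largest called ratios each way among genes with at least 20 CPM in the higher library and, there, at least 20% of the highest level in another gated class. Against other aerocytes, it took up to 10 genes each way called alike in both libraries at 20 CPM. Against general capillary cells it took the largest ratios at 100 CPM or more. For variation it took the 15 highest Fano factors. Pathway genes are named from their lists, and genes given beside them for a small count were chosen after their values were seen. Positions came from GENCODE M21 and promoters from RefSeq (GRCm38.p6).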

Additional observations from a re-analysis of the deposited data

Results flagged for a closer look

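Genes called in opposite directions in the 2 libraries, when negative aerocytes were set against other aerocytes, numbered 10, and 5 of them reached 20 CPM in 1 of the classes. Col3a1, a fibrillar collagen, had a log2 ratio of 1.78 in the donor library and -0.80 in that of the recipient, with the UMIs of donor-library negative aerocytes held by 3 cells. Gsn, an actin-severing protein, was at 0.73 and -1.26, Myl9, a smooth muscle myosin light chain, at -0.99 and 1.41, and Mt1, a metallothionein, at 0.83 and -1.76. Xrcc4 was at 0.64 and -0.72. Of Mt1 UMIs, 3 cells held 100% in donor-library negative, 75.4% in donor-library other and 59.3% in recipient-library other aerocytes. In negative aerocytes, 3 cells held 47.5% (donor) and 46.8% (recipient) of Gsn UMIs. For Myl9 these shares were 54.55% and 62.2%. The difference between the libraries was not tested. Without cells with 5 or more UMIs of another type's markers, none of these 5 was called in the recipient library. In the donor library Mt1 (0.85) and Xrcc4 (0.64) were then still called higher, and Col3a1, Gsn and Myl9 were not called.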

How the results depend on the processing

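Of 154 recomputed shares and counts of calls, 121 stayed within 1.5 times the given value or within its interval and 33 moved. Of 853 recomputed ratios of named genes, 776 kept their value within the interval, 68 moved and 9 changed sign.

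The share of negative aerocytes among aerocytes was 52.5% (donor) and 51.5% (recipient) at 3000 UMIs. Among cells, the donor share was 5.08% with a stricter gate (at least 5 UMIs of Ednrb and Car4, none of Plvap and Ager) and 10.6% from 5000 UMIs. The recipient share was 7.31% with all shared barcodes left out, 3.70% with the stricter gate and 12.7% without cells with other types' markers, an alternative chosen after seeing the data.

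Donor over recipient, genes higher were 272 by the mean of per-cell CPM, 97 at 100 counts and 79 at 2-fold. Genes lower were 242 with all shared barcodes left out, 222 without cells with other types' markers and 122 at 100 counts. Over other aerocytes in the donor library, genes higher were 140 without the highest Scrublet scores, 142 without cells with other types' markers, 80 at 100 counts and 117 at 2-fold, and genes lower were 54 at 100 counts and 42 at 2-fold. In the recipient library, genes higher were 143 with all shared barcodes left out, 88 at 100 counts and 88 at 2-fold, and genes lower were 97 in thinned cells, 159 without cells with other types' markers, 105 at 100 counts and 149 at 2-fold. In both libraries, genes higher were 11 with all shared barcodes left out, 13 without the highest Scrublet scores, 20 in thinned cells, 7 without cells with other types' markers, 16 at 100 counts and 9 at 2-fold, and genes lower were 4 at 100 counts.

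Without cells with other types' markers, log2 ratios over other aerocytes changed sign for Cox4i2 (-0.19, donor), Postn (-0.093, recipient), Ndufa4l2 (-0.98, donor, and -0.051, recipient), Gucy1a1 (-0.40, donor), Pdgfrb (-1.52, donor, and -0.36, recipient) and Crim1 (-0.33, donor). Cox4i2 and Pdgfrb are among the markers by which those cells were picked. Fst was at -1.16 in the recipient library with all shared barcodes left out. Fewer counts or cells enter the 100-count, thinned and left-out settings by construction, and for the rest the cause was not tested. TMM scaling and centring moved the median ratio by under 0.1 on the log2 scale.

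The share of higher among called genes, donor over recipient, was 29.2%, against 44.9% with all shared barcodes left out and 45.2% without cells with other types' markers. No paired analysis was possible because each group has 1 library. With 1 pooled library per origin, differences between mice cannot be seen, and sparse genes such as Il1a cannot be told absent from a cell at this depth.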
